A study of Homo sapiens with 3 samples.

Results

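The zinc finger gene clusters of human chromosome 19 were examined for binding of YBX1, an RNA-binding protein with a cold-shock domain. They were defined as 5 windows of the hg19 genome, numbered here from the short arm to the long-arm end: cluster 1 from 19700000 to 24400000, cluster 2 from 36700000 to 38300000, cluster 3 from 44300000 to 45000000, cluster 4 from 52300000 to 54200000 and cluster 5 from 56100000 to 59128983, the end of the chromosome. A YBX1 peak belonged to a cluster if its midpoint lay in the window, and 75 peaks did, of 998 on chromosome 19 and 17802 in the deposited list. The other 923 peaks of chromosome 19 served as the comparison.

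The cells were T24, an established human bladder carcinoma line, made to overexpress Flag-tagged YBX1, and no library came from cells without the tag. The labels name 3 libraries in 3 groups, 1 each: RNA_input, taken from the lysate before capture; RNA_YBX1_RIP, the RNA recovered on anti-Flag beads after micrococcal nuclease digestion; and YBX1_RIP_BS, the captured RNA treated with bisulfite to read m5C. The source label of YBX1_RIP_BS names a T25 line where its strain label says T24. The study asked which m5C sites lie in RNA bound by YBX1. With 1 list and no replicates there is no test between conditions, and every interval below is a 95% interval for counting error alone that treats peaks, or runs of peaks, as independent. Read depth per peak is unknown.

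KRAB zinc finger proteins are DNA-binding repressors with a KRAB domain near one end and a row of zinc fingers near the other. The KRAB domain recruits the corepressor TRIM28 (also called KAP1), which brings histone methylation to the bound sequence, and many of these proteins bind transposable elements. The family grew by repeated tandem duplication, which left closely similar genes side by side on chromosome 19. Their fingers are usually encoded in a single long last exon.

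The names of the clusters could be checked only against gene names. Of 171 zinc finger genes listed for the 5 clusters from general knowledge, the RefSeq gene table (GRCh38.p14) places 170 on chromosome 19 and classes 169 of these as protein-coding. Between the first and the last listed gene of each cluster, in the table's order, 181 of 204 coding genes (88.7%) carry a zinc finger family symbol (ZNF, ZFP, ZSCAN, ZIM, ZIK, HKR, ZKSCAN or ZBTB). These spans were bounded by listed zinc finger genes, so a high share is partly built in. It describes the spans and leaves unchecked any part of a window outside them. This share was 94.7% of 38 genes from ZNF14 to ZNF254 (cluster 1), 96.6% of 29 from ZNF565 to ZNF607 (cluster 2) and 100% of 19 from ZNF404 to ZNF180 (cluster 3). In clusters 4 and 5 other genes were mixed in, with 85.1% of 47 from ZNF577 to ZNF331 and 81.7% of 71 from ZNF583 to ZNF446. Outside these spans 87 of 1247 coding genes of the chromosome (6.98%) carry such a symbol, so the comparison sequence can also contain zinc finger genes. Genes inside a window but outside its span would be counted here too. The table is on another build than the peaks, so no peak was assigned to a gene, and a peak inside a cluster need not lie in a zinc finger gene.

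YBX1 peaks were sparse in the zinc finger clusters against the rest of chromosome 19. Of all 17802 peaks, 5.61% lay on chromosome 19 and 0.421% in the clusters. Cluster density was not compared with that of other chromosomes. The clusters make up 20.2% of the length of chromosome 19 and held 7.52% of its peaks. Their density was 6.29 peaks per Mb (4.95 to 7.88, exact Poisson), against 19.6 (18.3 to 20.9) in the rest of the chromosome, a ratio of 0.322 (0.251 to 0.407, exact). Peaks near each other are not independent, so peaks within 5 kb were also joined into runs, each counted once whatever its number of peaks. The clusters held 47 runs and the rest 437, which is 3.94 against 9.26 runs per Mb and a ratio of 0.426 (0.308 to 0.576). Peaks covered 0.442% of the sequence of the clusters and 1.28% of the rest.

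How low the clusters appear depended on the sequence they were set against. The sequence before cluster 1 had 30.5 peaks per Mb (28.1 to 33.0) and held 601 of the 923 other peaks. Against the rest of the chromosome after that stretch (11.7 peaks per Mb, 322 peaks), the ratio rose to 0.537 (0.412 to 0.692), and in runs it was 0.616 (0.436 to 0.854). This smaller rest includes most of the longest stretch without a peak, of 4.91 Mb. Leaving that stretch out of the whole rest gave a ratio of 0.296 (0.230 to 0.374). It was not left out of the smaller rest, where it would also lower the ratios. Gene density differed as well. Genes were counted on the spans named above, and length and peaks were taken from the windows. This gave 17.1 coding genes per Mb of cluster and 26.4 per Mb elsewhere. There were 36.8 peaks per 100 coding genes against 74.0, a ratio of 0.497. These spans are not the windows themselves, so the values per gene are approximate. A coding gene inside a window but outside its span counts as elsewhere. Such genes would lower the gene density of the clusters and raise the ratio of 0.497, and their number is not known. The part of gene density or RNA level in the difference was not tested.

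**Figure D1:**
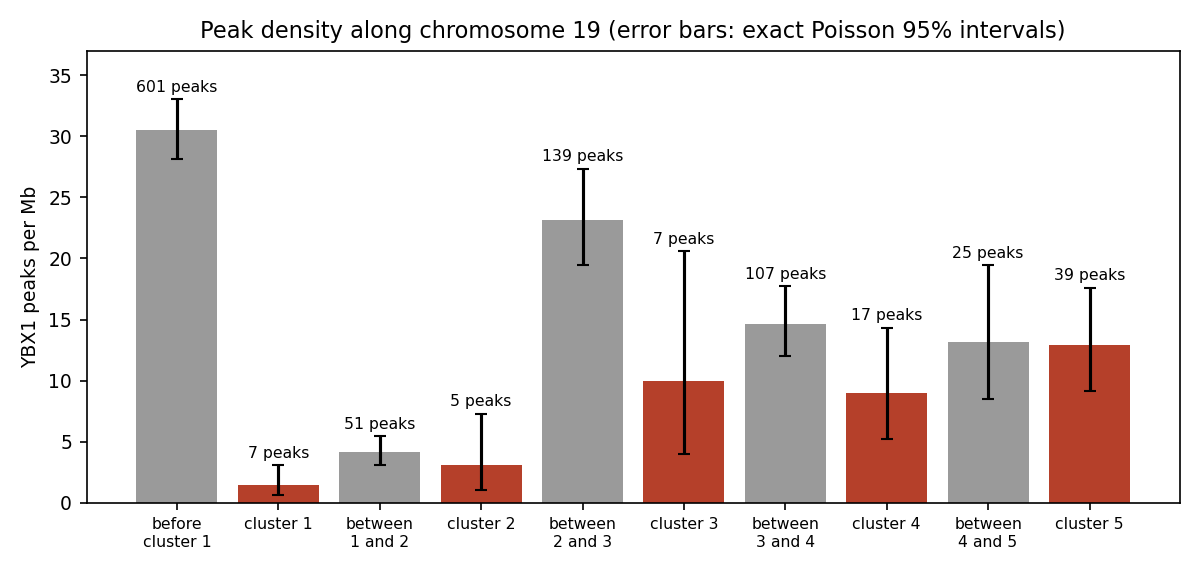
YBX1 peaks per Mb (vertical axis) in the 5 zinc finger clusters (red) and in the 5 stretches before and between them (grey), in order along chromosome 19; error bars are exact Poisson 95% intervals and labels give the peak count. Clusters 1 and 2 are low at 1.49 and 3.13 peaks per Mb, the stretch between them is also low at 4.15, and cluster 5 at 12.9 stands beside its grey neighbour at 13.2.

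The 5 clusters differed from each other. Cluster 1 had 7 peaks in 4.7 Mb, or 1.49 per Mb (0.599 to 3.07), and cluster 2 had 5 in 1.6 Mb, or 3.13 per Mb (1.01 to 7.29). Cluster 4 had 17 peaks (8.95 per Mb, 5.21 to 14.3), cluster 3 had 7 (10.0 per Mb, 4.02 to 20.6) and cluster 5 had 39 (12.9 per Mb, 9.16 to 17.6). Density in cluster 5 was 8.65 times that in cluster 1 (3.82 to 22.9), and in cluster 4 it was 6.01 times that in cluster 1 (2.37 to 17.1). The interval for cluster 2 against cluster 1 included 1 (2.10 times, 0.525 to 7.68).

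Set against the rest of the chromosome one at a time, clusters 1, 2, 4 and 5 had fewer peaks per Mb by intervals that excluded 1. Their ratios were 0.0762 (0.0305 to 0.158), 0.160 (0.0518 to 0.374), 0.458 (0.265 to 0.737) and 0.658 (0.465 to 0.907). For cluster 3, the shortest, the ratio of 0.511 had an interval of 0.205 to 1.06. Against the rest after cluster 1, without the dense first stretch, only clusters 1 and 2 were lower by intervals that excluded 1 (0.127, 0.0507 to 0.265, and 0.267, 0.0861 to 0.629). There the ratio was 0.854 (0.341 to 1.78) for cluster 3, 0.764 (0.440 to 1.24) for cluster 4 and 1.10 (0.768 to 1.54) for cluster 5. These ratios would be lower with the longest stretch without a peak left out of this rest. That stretch is 4.91 Mb long, of which 1117 kb lie in cluster 1, and this rest has 322 peaks in 27.5 Mb. The ratio of 1.10 for cluster 5 thus depends on counting the stretch, and no ratio without it was computed. Counted in runs and against the whole rest, only clusters 1 and 2 stayed below 1 over their whole interval (0.115, 0.0371 to 0.270, and 0.203, 0.0416 to 0.596). The ratio in runs was 0.463 (0.0951 to 1.36) for cluster 3, 0.682 (0.350 to 1.20) for cluster 4 and 0.856 (0.542 to 1.29) for cluster 5. Low density was not particular to zinc finger clusters either: the stretch from 24400000 to 36700000, between clusters 1 and 2, had 51 peaks in 12.3 Mb, and the clusters together had 1.52 times its density (1.05 to 2.21). The 2 longest stretches of chromosome 19 without a peak, of 4.91 and 4.58 Mb, lie wholly or mostly there, and unassembled sequence was not subtracted from its length. With such sequence left out, its density would be higher and the ratio of 1.52 lower. Whether the interval would still exclude 1 was not tested.

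The edges of the windows did not cut through a group of peaks. No peak overlapped an edge, and the gap between the last peak outside and the first inside was 115 kb at cluster 1, 444 kb at cluster 2, 320 kb at cluster 3, 966 kb at cluster 4 and 72.3 kb at cluster 5. On the far side, the next peak after cluster 1 lay 4907 kb beyond its last one, and the gaps after clusters 2, 3 and 4 were 716, 675 and 453 kb. The sequence just outside was denser as a whole. The 9 flanks of 500 kb held 103 peaks, or 22.9 per Mb (18.7 to 27.8), and the clusters had 0.275 times that density (0.201 to 0.373). Flanks were uneven, with 25 and 23 peaks on the sides of cluster 2, 19 before cluster 1, 18 before cluster 5, and 0 after cluster 1, 1 before cluster 4 and 2 before cluster 3.

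Much of the sequence of the clusters held no peak. Of 119 windows of 100 kb laid end to end from each cluster's start, 25 held a peak, which is 21.0% (14.6 to 29.2%, Wilson), against 177 of 472 (37.5%, 33.2 to 41.9%) in the rest. The difference was -16.5 percentage points (-24.3 to -7.28, Newcombe). Against the rest after cluster 1, where 28.0% of windows held a peak, it was -6.99 points (-15.4 to 2.57), an interval that includes 0. That rest contains most of the longest stretch without a peak. Among the 20 longest stretches of chromosome 19 without a peak, 7 lay wholly or mostly in the clusters, which make up 20.2% of its length. The longest of all, of 4.91 Mb, lay mostly outside them. Of the 7, the longest ran for 2.29 Mb from 20990173 to 23282921 in cluster 1, and took up 48.8% of that cluster.

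Cluster 1 had 5 of its 7 peaks in its first 100 kb, in 36.5 kb from 19734461 to 19770950. They were 761, 449, 438, 465 and 683 bp wide and formed 2 pairs and a single peak. Whether they lie before ZNF14, the first gene of the named span, could not be told without gene positions on the peaks' build. The other 4.6 Mb held 2 peaks, from 20989499 to 20990173 (674 bp) and from 23282921 to 23283322 (401 bp). This is 0.435 peaks per Mb (0.0527 to 1.57), or 0.0222 of the density in the rest of the chromosome (0.00269 to 0.0805). The first 100 kb were set apart after the positions had been seen, so these intervals do not have their nominal meaning. The value for cluster 1 thus depends on where its left edge is set. Each of these 2 peaks stood more than 1 Mb from any other peak.

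Cluster 2 had 5 peaks at 3 places, all between 37085277 and 37681152. A single peak of 456 bp was followed by a pair from 37239261 to 37241452, with widths of 508 and 801 bp and a gap of 882 bp. A second pair, from 37677308 to 37681152, had widths of 468 and 739 bp and a gap of 2637 bp. In both pairs the peak at the higher coordinate was the wider one. The list gives no strand, so which end of a transcript this is cannot be told. No peak lay in the last 619 kb of the window.

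Cluster 3 had its 7 peaks within 58.1 kb, from 44417338 to 44475465, and none in the other windows of 100 kb. They formed 2 pairs and a triplet, so that every peak had a neighbour within 1909 bp. The first pair measured 479 and 587 bp and the second 400 and 479 bp. The triplet, from 44471220 to 44475465, had widths of 500, 514 and 961 bp, rising with the coordinate, and gaps of 1047 and 1223 bp. The first 117 kb of the window held no peak, nor did the 525 kb after the last peak, which are 74.9% of its length.

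Cluster 4 had 17 peaks at 12 places. Its first 751 kb, up to 53050612, held none. The widest peak, from 53057451 to 53058841 (1390 bp), followed a peak of 772 bp at a gap of 292 bp. A second group, from 53848640 to 53959705, held 7 peaks of 404 to 657 bp. The median width in this cluster was 439 bp (416 to 594, from order statistics), and 11 of 17 peaks were under 500 bp (64.7%, 41.3 to 82.7%), an interval that includes the 55.6% of the rest. All of its 5 runs with more than 1 peak were pairs.

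Cluster 5 at the end of the long arm contained 39 peaks at 24 places, in 3 main groups. The first 250 kb held 7 peaks, with a peak of 2694 bp from 56124885 to 56127579, and then no peak lay in 925 kb up to 57132543. Whether these 7 peaks lie before ZNF583, the first gene of the named span, could not be told either. A second group of 12 peaks lay from 57765088 to 57835301, and the third group, of 14 peaks, from 58805955 to 59059260. The last 400 kb thus held 35.9% of the cluster's peaks. The remaining 6 were scattered single peaks, from 400 to 890 bp wide.

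**Figure D2:**
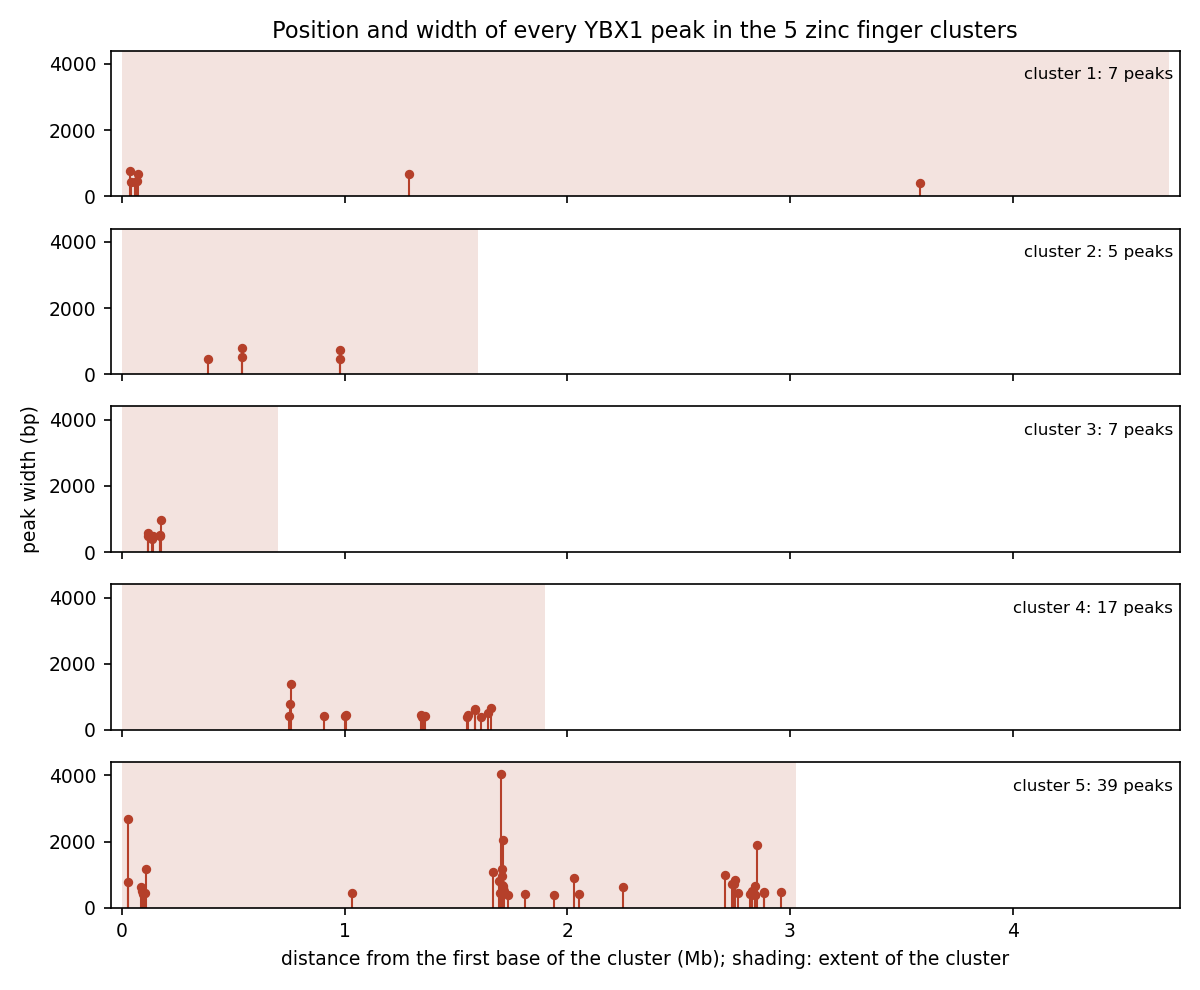
Every peak of the 5 clusters, by the distance of its midpoint from the first base of the cluster (horizontal axis, Mb) and its width (vertical axis, bp); shading marks the extent of each cluster. Cluster 1 is empty apart from 5 peaks at its start and 2 single peaks, cluster 3 has 7 peaks within 58.1 kb, and the widest peak of 4046 bp stands in the middle group of cluster 5.

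The largest run of all clusters lay in the middle group of cluster 5, from 57801951 to 57816507. It held 8 peaks over 14.6 kb, and peaks covered 73.7% of that span. Their widths in order were 4046, 705, 1183, 969, 589, 658, 2060 and 519 bp, and the gaps between them ran from 211 to 1325 bp with a median of 352 bp. The widest peak was thus at the end with the lowest coordinate, and it was the 6th widest on chromosome 19. On the whole chromosome 17 runs held 8 or more peaks, and this was the only one of them in a cluster. The next largest runs of the clusters, of 3 peaks each, were the triplet of cluster 3 and one in cluster 5 from 58940760 to 58943896, with widths of 645, 400 and 400 bp.

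Runs in the clusters were mostly single peaks and pairs. Of the 47 runs, 27 were single peaks (57.4%, 43.3 to 70.5%), 17 were pairs (36.2%, 24.0 to 50.5%), and 3 held 3 peaks or more (6.38%, 2.19 to 17.2%). In the rest of the chromosome 254 of 437 runs were single peaks (58.1%), 90 were pairs (20.6%, 17.1 to 24.6%) and 93 held 3 or more (21.3%, 17.7 to 25.4%). As a share of runs, and not per Mb, pairs were higher in the clusters by 15.6 percentage points (2.72 to 30.3). The difference for runs of 3 or more was -14.9 points (-20.7 to -3.54). Against the rest after cluster 1 these differences were 18.6 points (4.82 to 33.7) and -10.7 points (-18.2 to 1.15), so the second interval then included 0. The share of single peaks differed by -0.677 points (-15.5 to 13.2). Runs of 3 or more held 18.7% of the peaks of the clusters and 53.0% of those elsewhere. The part of the lower peak density in these run sizes was not tested.

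**Figure D3:**
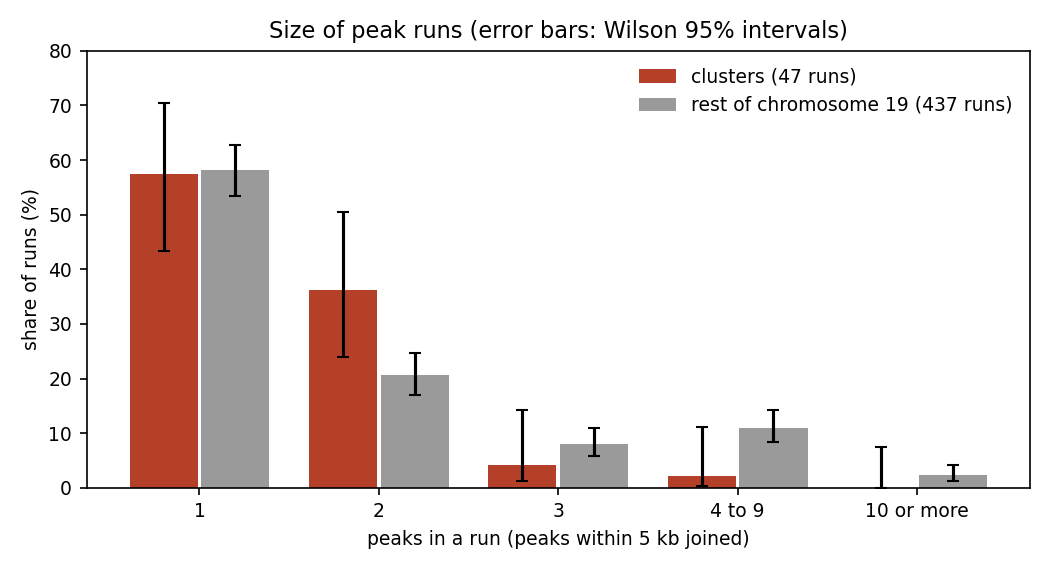
Share of runs (vertical axis, percent) by the number of peaks in a run (horizontal axis) in the clusters (red, 47 runs) and the rest of chromosome 19 (grey, 437 runs); error bars are Wilson 95% intervals. Single peaks take a similar share of both (57.4 and 58.1%), pairs take 36.2 against 20.6%, and no run in the clusters reaches 10 peaks.

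There were 1.60 peaks per run in the clusters (1.26 to 2.00, Poisson on the peaks) and 2.11 in the rest, and 1.46 in the clusters without the run of 8. The 1.83 of the rest after cluster 1 lay inside that interval, and among peaks of at least 500 bp the clusters and the rest had 1.63 and 1.62 peaks per run. The share of peaks with another within 5 kb was 64.0% (52.7 to 73.9%), or 48 of 75, against 72.5% (69.5 to 75.3%), or 669 of 923. The interval of this difference, -8.48 percentage points (-20.1 to 1.89), included 0, and against the rest after cluster 1 the difference was -0.286 points (-12.7 to 11.0). Within runs, the median gap was 960 bp (475 to 1768, 28 gaps) in the clusters and 1460.5 bp (1287 to 1714, 486 gaps) elsewhere, and these intervals overlap. The 28 gaps include those of the run of 8, which had a median of 352 bp, and no median was computed without them. At the other extreme, 5 of the 75 peaks and 14 of the 923 stood more than 100 kb from any other peak. Of these 5, cluster 1 had 2, cluster 5 had 2 and cluster 2 had 1.

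Peak widths in the clusters and elsewhere had overlapping intervals. The 75 peaks had a median width of 500 bp (463 to 627), with quartiles of 437.5 and 733.5 bp, against 478 bp (468 to 490) with quartiles of 428.5 and 658 bp in the rest. Peaks of at least 1000 bp made up 8 of 75 (10.7%, 5.50 to 19.7%) and 94 of 923 (10.2%, 8.40 to 12.3%), a difference of 0.482 percentage points (-5.10 to 9.65). The narrowest width in the list, 400 bp, was found for 6 of the 75 (8.00%, 3.72 to 16.4%) and 34 of the 923 (3.68%, 2.65 to 5.10%). The interval of this difference also included 0 (4.32 points, -0.195 to 12.8). Among all 17802 peaks of the list, 6.39% had this width.

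The wide peaks were concentrated in cluster 5. It held 7 of the 8 peaks of at least 1000 bp, and its median width was 619 bp (463 to 782), with values from 400 to 4046 bp. The share of such peaks was 17.9% (8.98 to 32.7%) there and 2.78% (0.492 to 14.2%) in clusters 1 to 4, where 1 of 36 peaks was as wide, a difference of 15.2 points (0.670 to 30.1). This division was made after the widths had been seen. The run of 8 carried 3 of the 7 wide peaks. Without it, the median width in cluster 5 was 497 bp (455 to 728) and 4 of 31 peaks were wide (12.9%, 5.13 to 28.9%). The median width was 465 bp in cluster 1 (401 to 761 bp), 508 bp in cluster 2 (456 to 801 bp) and 500 bp in cluster 3 (400 to 961 bp), where these ranges are the narrowest and widest peak. None of these 3 clusters had a peak of 1000 bp or more.

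**Figure D4:**
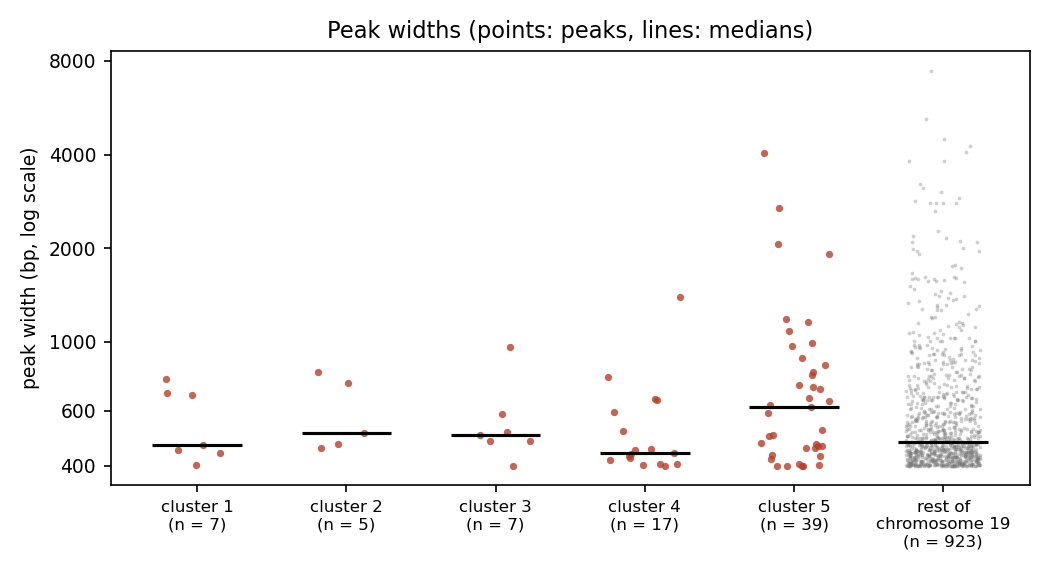
Width of each peak (points; vertical axis in bp, log scale) in clusters 1 to 5 and in the rest of chromosome 19, with medians as lines. Medians of clusters 1 to 4 lie between 439 and 508 bp, near the 478 bp of the rest, and cluster 5 has a median of 619 bp and 7 of the 8 peaks of at least 1000 bp.

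Peaks were fewer than genes in the clusters, as they were in the rest of the chromosome, with 923 peaks beside 1247 coding genes outside the named spans. With peaks counted in the hg19 windows and genes on the named spans, there were 7 peaks in cluster 1 beside 36 coding genes with a zinc finger symbol, 5 beside 28 in cluster 2, 7 beside 19 in cluster 3, 17 beside 40 in cluster 4 and 39 beside 58 in cluster 5. Joined into runs, these were 5, 3, 3, 12 and 24 places. A run can span more than 1 gene and a gene can hold several runs, so these counts do not give the number of zinc finger transcripts with a peak. Closely similar paralogs share sequence, and the treatment of reads that match several places is not stated in the labels or the file.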

How the data were processed

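RNA from T24 cells was captured with Flag-tagged YBX1 and sequenced. The deposited file gives only a chromosome, a start and an end per peak (genome positions in bases), per the file headers. Trimmomatic, MACS2 and build hg19 are named in the submitters' processing notes. The aligner, the settings and the libraries that entered peak calling are not stated there. The list was treated as pooled, with no sample of its own.

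Width is end minus start. Peaks within 5 kb were joined into runs, and a run belonged to a cluster by its midpoint. Rates carry exact Poisson or conditional binomial intervals, shares Wilson intervals, differences of shares Newcombe intervals and medians order-statistic intervals (95%). Functions were tested on simulated data. Regions were named by rule: the widest peak, largest run, longest empty stretch and densest 100 kb of each cluster, and the 10 widest peaks and largest runs. The other spans and groups described were picked after their values were seen. Members, lists and comparisons were chosen with earlier results of these data known. No genome of the peaks' build was at hand, so no sequence was read. Python 3.11.15, numpy 2.4.6, pandas 2.3.3, scipy 1.17.1 and matplotlib 3.10.9 were used.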

Additional observations from a re-analysis of the deposited data

How the results depend on the processing

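Of 69 alternative values computed for 5 results, 58 lay within the interval of the reported value and kept their direction against the rest of chromosome 19. This count is no measure of robustness, because several settings could not change a value in the clusters. No peak overlapped an edge, so counting whole peaks or any base gave the same peaks. The smallest gap within a run of the clusters, 145 bp, was above the merging distance of 100 bp. A change of the rest leaves widths and shares in the clusters as they are. The ratio of peak density stayed below 1 in all 14 alternatives (0.207 to 0.537). It was 0.537 against the rest after the start of cluster 1, 0.481 without cluster 1 and 0.207 without cluster 5. Direction against the rest turned for 3 results. Median width was 473.5 bp without cluster 5 (rest 478 bp). The share of wide peaks was 2.78% without cluster 5 and 7.46% without the largest run (rest 10.2%), and its unchanged 10.7% lay below the 11.2% of the rest after the start of cluster 1. Peaks per run were 1.63 among peaks of at least 500 bp (rest 1.62). With wide set at 2000 bp the share was 4.00%. Peaks with a neighbour made up 45.3% at a distance of 2 kb and 74.7% at 10 kb, by construction of the distance. The removal of the largest run was chosen after seeing the data. No paired analysis was possible because the labels give 1 library per group. The list has no read counts, so the depth behind a peak cannot be given.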
